A study of Mus musculus with 9 samples.

Results

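The interferon-stimulated genes are 43 genes of the type I interferon response that were listed by name and matched to the Ensembl identifiers of the count tables, 43 of 55487 genes in all. All 43 names matched. The list was not computed from the measured values, but it was chosen with earlier results of these data known. It holds the receptor and its transcription factors, sensors of foreign nucleic acid, antiviral effectors, enzymes that attach or remove ISG15, ubiquitin or ADP-ribose, and interferon-inducible GTPases.

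RNA of RAW264.7 cells, a mouse macrophage line of BALB/c origin, was sequenced without any stimulation of the cells. The labels give 3 genotypes with 3 libraries each, CEBPD wild type, CEBPD KO and CEBPD TAD mutant, here called wild-type, knock-out and ΔTAD macrophages. C/EBPδ is a transcription factor of the CCAAT/enhancer-binding protein family, and the study asked how cells that lack it differ from cells whose C/EBPδ can bind DNA but has lost its transactivation domain. The ΔTAD protein is made from the edited gene under its own promoter, and the knock-out cells are clones of the same CRISPR/Cas9 editing in which the reading frame was lost. Knock-out and ΔTAD cells are thus edited, selected clones. The study also describes wild-type clones, but the labels do not say whether the wild-type libraries come from them. The design text speaks of 3 independent clones but does not say of which genotype, and nothing states that the wild-type libraries are separate cultures, so that p-values measure the spread between these libraries, which may be technical. Both comparisons with wild-type macrophages share the same 3 wild-type libraries.

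Type I interferons bind a receptor of the chains IFNAR1 and IFNAR2, whose kinases phosphorylate transcription factors of the STAT family. STAT2 and IRF9 are parts of the complex ISGF3, which binds the interferon-stimulated response element (ISRE) in the promoters of its targets, while STAT dimers bind the gamma-activated sequence (GAS). Macrophages keep a low level of this response without infection, and some of its products, such as IRF7 and the RNA sensors, feed back into the making of more interferon.

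Between 16113306 and 20981829 counts per library fell on genes, and a count of 3, the floor used here, was 0.143 to 0.186 CPM (the count scaled to a common library size) before TMM scaling, which was applied to all other CPM values. ΔTAD replicate 1 stood apart from the other ΔTAD libraries. An annotated rRNA gene, CT010467.1, took 11% of its counts against 0.303% to 1.16% in the other 8 libraries. Cebpd itself had 70 to 130 counts per library and was called in no comparison, but both deletions remove only a short stretch of the transcript, so that its count does not check the labels. Of 11 macrophage markers 10 had more than 3 counts, all but Mertk, and their summed level was 3660 to 3870 CPM in wild-type, 4800 to 5200 CPM in knock-out and 7350 to 7520 CPM in ΔTAD libraries. The part of this difference in the results on interferon-stimulated genes was not tested, and in bulk RNA fewer cells that express a gene and less of its RNA per cell cannot be told apart. Markers of T cells, B cells, fibroblasts and epithelial cells summed to at most 0.288 CPM in any library.

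The resting level of the 43 genes in wild-type macrophages covered a wide range. Levels between genes are compared in CPM per kb of exon. Trim25, a ubiquitin ligase that acts on the sensor RIG-I, was highest with 51.6 ± 0.485 CPM per kb (SD, n = 3). It was followed by Irf5, a transcription factor of inflammatory genes, with 29.8 ± 1.49 and by Bst2, which tethers budding virus to the cell surface, with 27.8 ± 0.704 CPM per kb (SD, n = 3), a pair that did not differ beyond its spread. Ifnar1 with 12.3 ± 0.527 and Irf3 with 11.6 ± 0.23 CPM per kb (SD, n = 3) came next and did not differ beyond their spread either. In wild-type macrophages 22 of the 43 genes lay under 1 CPM per kb, among them most effectors that are known for strong induction, such as Ifit1, Oas2, Rsad2, Usp18, Mx1 and Mx2. In knock-out macrophages 18 and in ΔTAD macrophages 21 genes lay under this level.

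**Figure D1:**
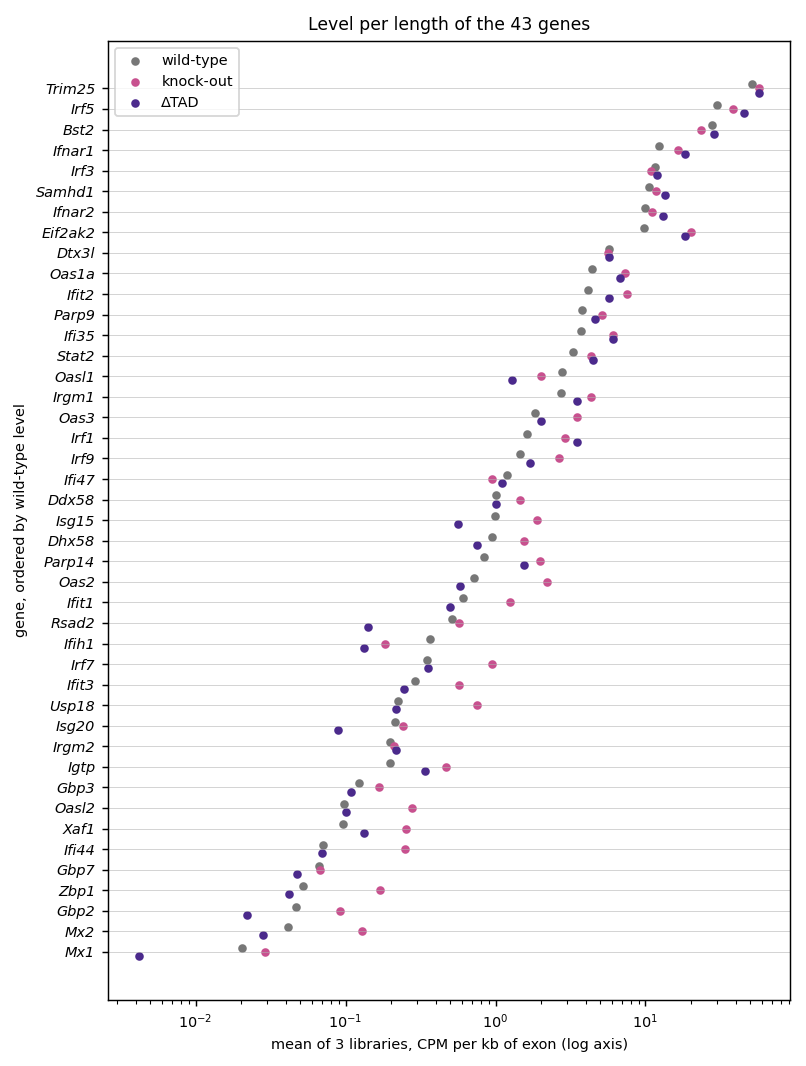
Mean level of each of the 43 genes over the 3 libraries of a genotype, in CPM per kb of exon on a log axis, ordered by the wild-type level. Genes run from Trim25 with 51.6 to Mx1 with 0.0204 CPM per kb in wild-type macrophages, and the knock-out points of many low genes lie to the right of the other 2 genotypes.

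The genes for interferons themselves were close to silent. None of the 21 interferon genes listed passed the filter, 19 had 0 counts in all 9 libraries, and the remaining counts were 1 of Ifnb1 in wild-type replicate 1, 1 of Ifnb1 in knock-out replicate 3 and 1 of Ifnz in wild-type replicate 1. A difference in interferon transcripts between genotypes was therefore not detectable at this depth.

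Of the 43 genes, 36 passed the filter on low counts and were tested along with all other genes, 14312 in total. The genes Zbp1, Isg20, Mx1, Mx2, Gbp2, Gbp3 and Gbp7 did not pass. A gene was called at an adjusted p-value under 0.01 from the quasi-likelihood test of edgeR, adjusted by the method of Benjamini and Hochberg. Since a gene can pass the filter through the genotype in which it is high, the counts of called genes describe the 36 tested genes.

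In knock-out macrophages 30 of the 36 tested genes were called in either direction, against 45.2% of all tested genes. Of these, 27 were higher than in wild-type macrophages, against 22.8% of all tested genes, and 3 were lower, against 22.4%. The median log2 fold change (log2FC) of the 36 genes was 0.72, against −0.00 for all tested genes. Of the 36, 10 were called at least 2-fold higher, against 518 of all 14312 tested genes. In ΔTAD macrophages 17 of the 36 were called, against 49.7% of all tested genes. Here 14 were higher than in wild-type macrophages, against 26.3% of all tested genes, and 3 were lower, against 23.4%. The median log2FC was 0.14, against −0.00 for all tested genes. Of the 36, 1 was called at least 2-fold higher, against 585 of all 14312, and 3 at least 2-fold lower, against 748. Tested directly, 22 of the 36 genes differed between knock-out and ΔTAD macrophages, against 33% of all tested genes. In this comparison 17 were higher in knock-out than in ΔTAD macrophages, against 13.9% of all tested genes, and 5 were lower, against 19.1%, with a median log2FC of 0.37, against −0.03. Without ΔTAD replicate 1, the library with the high rRNA share, 28 genes were higher in knock-out and 13 in ΔTAD than in wild-type macrophages, and 19 were higher in knock-out than in ΔTAD macrophages. The 5 genes lower in knock-out than in ΔTAD macrophages were Ifnar1, Ifnar2, Irf5, Bst2 and Samhd1, of which Irf5 alone was called when libraries were scaled by their size alone, without TMM. The 3 genes lower in knock-out than in wild-type macrophages were Ifih1, Oasl1 and Bst2, and 1 of the 3 calls was left without knock-out replicate 3, without wild-type replicate 1 or without wild-type replicate 2.

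**Figure D2:**
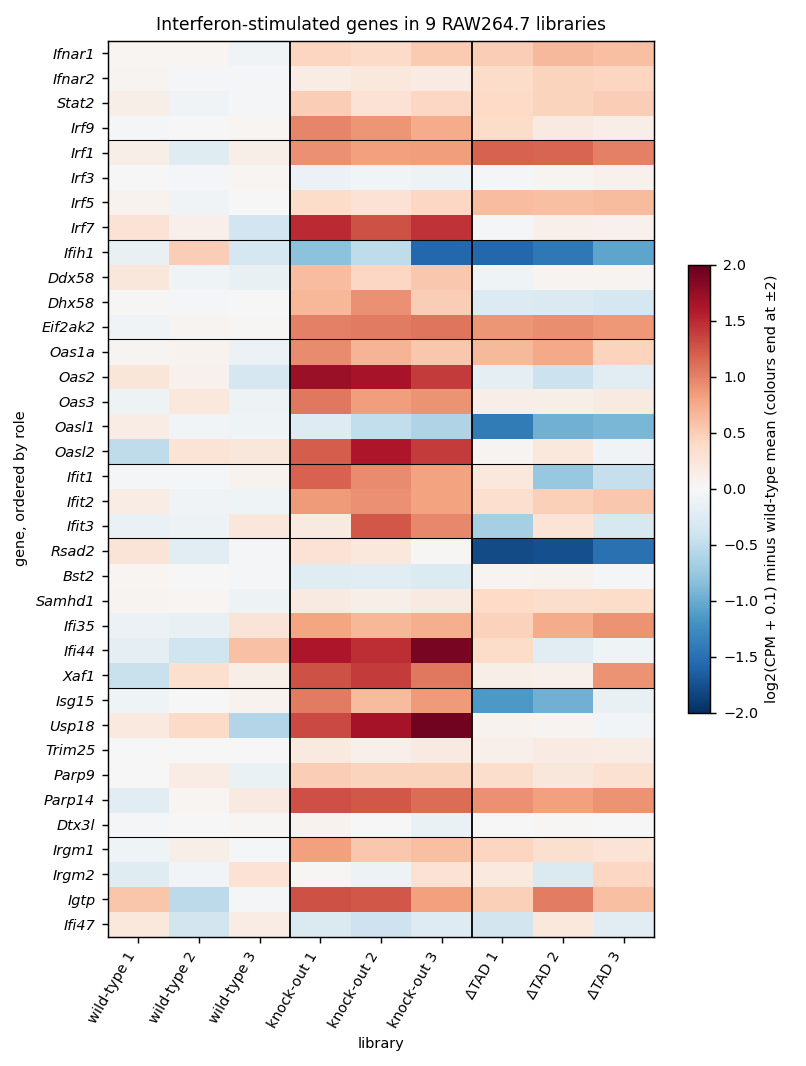
Level of the 36 tested genes in each of the 9 libraries as log2(CPM + 0.1) minus the mean of the wild-type libraries, with genes in rows ordered by role and colours ending at ±2. The knock-out columns are red for Irf7, Oas2, Ifi44 and Usp18, where the ΔTAD columns are pale, and the ΔTAD columns are dark blue for Rsad2.

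The promoters of the genes were read from RefSeq (GRCm38.p6) in windows of 250 bases before to 50 bases after the start, which were at hand for 35 of the 43 genes. The core of the ISRE, GAAANNGAAA on either strand, was found in 17 of the 35 genes (48.6%), against 3.99% of 27025 genes with such windows. The GAS letters TTCNNNGAA, which read the same on both strands, were found in 13 of the 35 (37.1%), against 9.55% of all. The C/EBP letters TTGCNNAA, on either strand, were found in 3 of the 35 (8.57%), against 12.2%, and the letters CCAAT in 10 of the 35 (28.6%), against 41.1%. These are matches of letters in a short window of the reference strain, C57BL/6J, and no binding was measured. ISRE and GAS letters overlapped in Bst2, and ISRE matches that overlap each other, as in Isg15, run together in the capitals.

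The following stretches show the ISRE core in genes of different behaviour, each 5′ to 3′ on the strand of its gene, with the matching letters in capitals, and are referred to where the gene is described. Ifit1, Isg15 and Oas3 were higher in knock-out macrophages, Oas1a and Irgm1 were also higher in ΔTAD macrophages, and Rsad2 and Bst2 were lower in 1 of the 2 genotypes. Their positions are chr19:34640765-34640833 (Ifit1, plus strand), chr4:156200855-156200916 (Isg15, minus), chr5:120777705-120777754 (Oas3, minus), chr5:120907526-120907565 (Oas1a, minus), chr11:48871421-48871470 (Irgm1, minus), chr12:26456543-26456592 (Rsad2, minus) and chr8:71537567-71537622 (Bst2, minus), all upstream of the start.
Ifit1: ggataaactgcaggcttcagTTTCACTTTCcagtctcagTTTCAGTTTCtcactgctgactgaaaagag
Isg15: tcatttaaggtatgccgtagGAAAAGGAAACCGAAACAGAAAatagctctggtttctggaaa
Oas3: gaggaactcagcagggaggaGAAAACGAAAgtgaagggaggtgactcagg
Oas1a: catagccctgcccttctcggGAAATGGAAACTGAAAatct
Irgm1: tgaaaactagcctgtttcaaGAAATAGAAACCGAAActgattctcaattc
Rsad2: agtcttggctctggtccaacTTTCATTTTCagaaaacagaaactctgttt
Bst2: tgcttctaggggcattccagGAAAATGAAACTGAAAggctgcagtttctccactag

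In the 3 sensor genes with a window the ISRE core lay just behind the start, in the first exon, at chr4:40239804-40239833 for Ddx58, chr17:78882535-78882564 for Eif2ak2 and chr2:62646206-62646233 for Ifih1, all on the minus strand. The sensor genes Dhx58 and Zbp1 had no window and were not read. Irf1 had no ISRE core but the GAS letters upstream of its start, at chr11:53769904-53769952 on the plus strand.
Ddx58: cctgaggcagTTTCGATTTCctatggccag
Eif2ak2: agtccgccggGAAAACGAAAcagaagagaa
Ifih1: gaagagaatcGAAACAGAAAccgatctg
Irf1: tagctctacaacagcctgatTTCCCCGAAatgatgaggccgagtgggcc

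**Figure D3:**
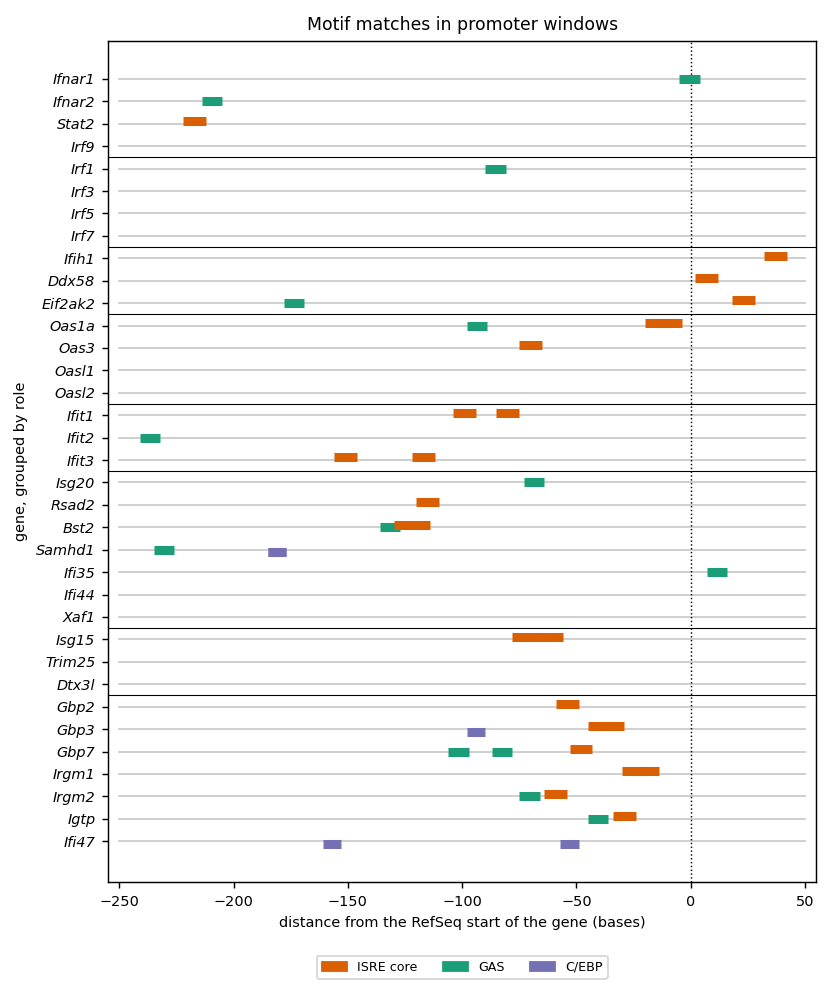
Matches of the ISRE core, GAS and C/EBP letters in the promoter windows of 35 genes, as distance from the RefSeq start in bases, with genes in rows grouped by role and all windows of a gene drawn on 1 line. Most ISRE matches lie within 150 bases upstream of the start, and those of Ifih1, Ddx58 and Eif2ak2 lie behind it.

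Among the 17 genes that were higher in knock-out than in ΔTAD macrophages 13 had a window, of which 7 held the ISRE core and 2 the GAS letters. Of the 5 genes that were lower in knock-out than in ΔTAD macrophages all had a window, of which 1 held the ISRE core and 4 the GAS letters. Of the 14 tested genes that were not called in this comparison 13 had a window, of which 6 held the ISRE core, close to the 7 of 13 among the higher genes, and 5 the GAS letters. The C/EBP letters were in 0 of the 13 higher genes, in 1 of the 5 lower genes, Samhd1, and in 1 of the 13 not called.

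The receptor chains and the STAT2 subunit of ISGF3 were modestly higher in both edited genotypes, whereas IRF9, the DNA-binding subunit of ISGF3, was clearly higher in knock-out macrophages. All 4 genes of this group were higher in knock-out and 3 of the 4 in ΔTAD macrophages, against 22.8% and 26.3% of all tested genes. Ifnar1 had 74.5, 74.8 and 69.2 CPM in wild-type, 97.8, 94.6 and 104.2 CPM in knock-out and 102.8, 114.4 and 110.6 CPM in ΔTAD libraries. Both edited genotypes lay above all wild-type libraries and overlapped each other, with a direct difference of −0.15 (edgeR adjusted p = 0.00532) that was not called in 7 of 15 other fits, those without knock-out replicate 1 or 2 or ΔTAD replicate 2 or 3 among them (edgeR adjusted p = 0.0144 to 0.0479). Expressed as log2FC, the change was 0.44 in knock-out (standard error 0.0434, edgeR adjusted p = 4.31e-09) and 0.59 in ΔTAD macrophages (standard error 0.0428, edgeR adjusted p = 1.48e-11). Ifnar2 had 34.0, 32.2 and 32.3 CPM in wild-type, 36.4, 37.8 and 36.8 CPM in knock-out and 42.3, 44.6 and 44.4 CPM in ΔTAD libraries, 3 groups without overlap. This gave a log2FC of 0.17 in knock-out (edgeR adjusted p = 0.0082), a call that was lost under 10 of 15 other fits, among them those without any 1 knock-out library, ΔTAD replicate 2 or 3 or wild-type replicate 2 or 3 (edgeR adjusted p = 0.0122 to 0.0321), and 0.41 in ΔTAD macrophages (edgeR adjusted p = 1.54e-07). The direct difference, −0.25 between knock-out and ΔTAD macrophages, was called (standard error 0.0502, edgeR adjusted p = 0.000329).

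Stat2 had 20.9, 18.4 and 18.8 CPM in wild-type, 27.2, 23.6 and 25.7 CPM in knock-out and 25.5, 26.4 and 27.3 CPM in ΔTAD libraries. Both edited groups lay above the wild-type libraries, with a log2FC of 0.4 and 0.45, and the difference between them, −0.05, was within its standard error of 0.068 (edgeR adjusted p = 0.556). Irf9 (ENSMUSG00000002325, chromosome 14, 55603571 to 55610030, plus strand) had 7.58, 7.87 and 7.99 CPM in wild-type, 15.5, 14.6 and 13.1 CPM in knock-out and 10.1, 8.84 and 8.61 CPM in ΔTAD libraries. The knock-out libraries were the highest without overlap, 1.85-fold above wild-type libraries. The log2FC was 0.89 in knock-out macrophages (standard error 0.0955, edgeR adjusted p = 2.01e-08), 0.22 in ΔTAD macrophages (edgeR adjusted p = 0.0655) and 0.66 between knock-out and ΔTAD macrophages (edgeR adjusted p = 3.24e-06). Its exons share 123 bases with those of Rnf31 on the same strand.

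The other interferon regulatory factors moved separately from each other. Irf7, the factor that amplifies interferon production, was higher in knock-out macrophages with no change called in ΔTAD macrophages, while Irf1 and Irf5 were higher in both and Irf3, which is activated by phosphorylation and not known as strongly inducible, passed no test. Irf7 (ENSMUSG00000025498, chromosome 7, 141262706 to 141266481, minus strand) had 1.6, 1.39 and 0.969 CPM in wild-type, 3.8, 3.26 and 3.68 CPM in knock-out and 1.26, 1.39 and 1.38 CPM in ΔTAD libraries. Every knock-out library lay above all others, and the ΔTAD values fell within the wild-type range. In log2FC this was 1.42 in knock-out (standard error 0.2, edgeR adjusted p = 1.42e-06) and 0.02 in ΔTAD macrophages (standard error 0.24, edgeR adjusted p = 0.954), and the direct difference was 1.4 (standard error 0.198, edgeR adjusted p = 3.87e-06). Exons of Irf7 share 45 bases with the more highly counted Phrf1 on the opposite strand. Reads of this stretch cannot be told apart if strand was not used.

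Irf1, an early activator of interferon-stimulated genes with the GAS match shown above, had 6.93, 5.38 and 6.9 CPM in wild-type, 12.1, 11.4 and 11.4 CPM in knock-out and 14.5, 14.4 and 12.9 CPM in ΔTAD libraries. It was the only tested gene of the 36 that was at least 2-fold higher in ΔTAD macrophages, with a log2FC of 1.11 (standard error 0.102, edgeR adjusted p = 9.96e-10), against 0.86 in knock-out macrophages (standard error 0.105, edgeR adjusted p = 1.79e-07). The ΔTAD libraries lay above the knock-out libraries, but the difference of −0.25 did not pass the test (edgeR adjusted p = 0.0268). Irf5 had a log2FC of 0.35 in knock-out and of 0.61 in ΔTAD macrophages and was lower in knock-out than in ΔTAD macrophages by a log2FC of −0.26 (edgeR adjusted p = 4.34e-06). Exons of Irf5 share 411 bases with Tnpo3 on the opposite strand, and the strand setting of the counting was not given. Irf3 had 39.6, 39.2 and 40.8 CPM in wild-type, 36.9, 38.4 and 37.2 CPM in knock-out and 39.2, 41.6 and 42.5 CPM in ΔTAD libraries. Its knock-out values lay below the wild-type values by a log2FC of −0.09 that was not called (edgeR adjusted p = 0.148).

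**Figure D4:**
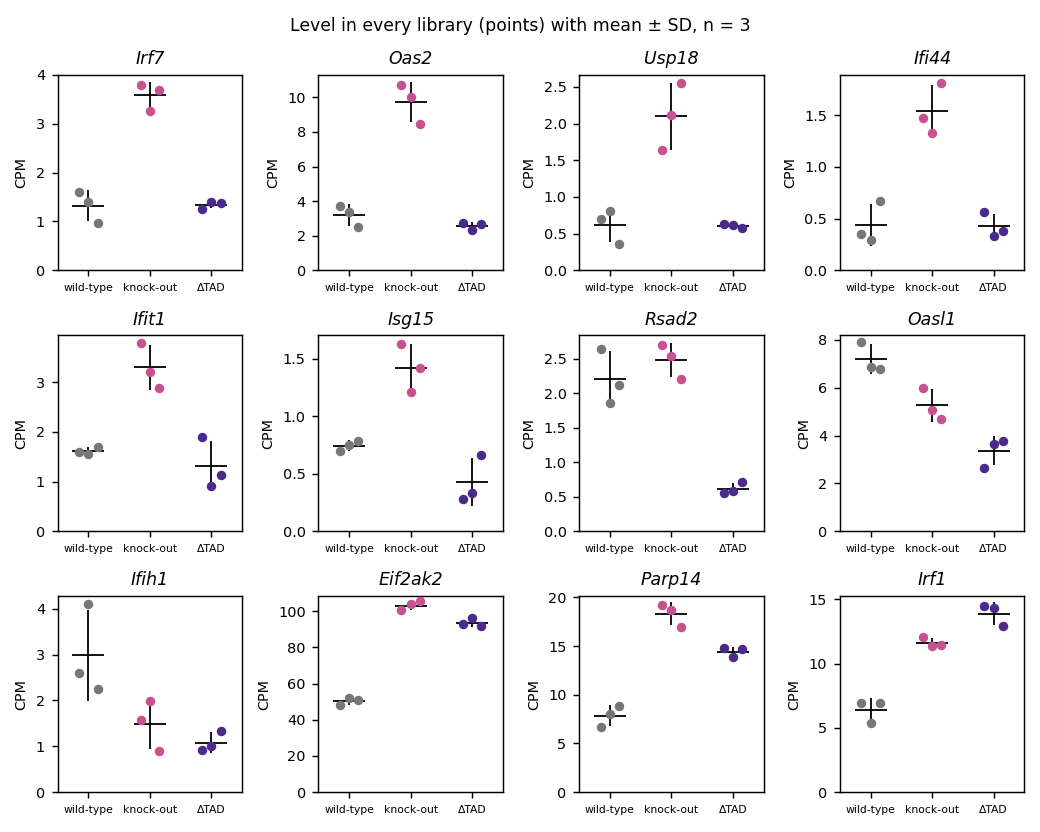
Level in CPM of 12 genes in every library (points), with the mean and SD of the 3 libraries of each genotype (lines), on axes that start at 0. Knock-out libraries stand above both other genotypes for Irf7, Oas2, Usp18, Ifi44, Ifit1 and Isg15, ΔTAD libraries stand below both for Rsad2 and Oasl1, and both edited genotypes stand above wild-type libraries for Eif2ak2, Parp14 and Irf1.

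Among the sensors of foreign nucleic acid, the helicase genes did not move together. Ddx58, which encodes RIG-I, and Dhx58, which encodes its regulator LGP2, were higher in knock-out macrophages, whereas Ifih1, which encodes the long double-stranded RNA sensor MDA5, was lower in both edited genotypes. Ifih1 had 2.59, 4.11 and 2.24 CPM in wild-type, 1.58, 1.99 and 0.907 CPM in knock-out and 0.909, 1.01 and 1.33 CPM in ΔTAD libraries. Both edited groups lay under the wild-type libraries, whose second replicate was far above the other two. The fitted log2FC was −1.43 in ΔTAD (standard error 0.272, edgeR adjusted p = 7.6e-05) and −1.0 in knock-out macrophages (standard error 0.259, edgeR adjusted p = 0.00206). The knock-out call was lost without wild-type replicate 2 (−0.70, edgeR adjusted p = 0.0378) and without knock-out replicate 3 (−0.75, edgeR adjusted p = 0.0221).

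Ddx58 had 8.33, 6.66 and 6.36 CPM in wild-type, 10.9, 9.49 and 10.3 CPM in knock-out and 6.65, 7.35 and 7.33 CPM in ΔTAD libraries. The knock-out libraries were above all others, with a log2FC of 0.51 against wild-type macrophages (edgeR adjusted p = 0.000293), and the direct difference from ΔTAD macrophages was 0.52 on the log2 scale (standard error 0.109, edgeR adjusted p = 0.000424). Dhx58 had 3.14, 3.01 and 3.09 CPM in wild-type, 4.96, 5.92 and 4.36 CPM in knock-out and 2.52, 2.5 and 2.38 CPM in ΔTAD libraries. Its 3 groups did not overlap, with the ΔTAD libraries lowest. On the log2 scale the change was 0.72 in knock-out (edgeR adjusted p = 0.000244), −0.32 in ΔTAD macrophages without passing the test (edgeR adjusted p = 0.105) and 1.04 between knock-out and ΔTAD macrophages (standard error 0.155, edgeR adjusted p = 8.23e-06).

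Eif2ak2, which encodes the double-stranded RNA-dependent kinase PKR, was higher in both edited genotypes. Among the sensor genes Ifih1, Ddx58, Dhx58, Zbp1 and Eif2ak2 of the interferon-stimulated list, Eif2ak2 was the most abundant. It had 47.9, 52.1 and 51.05 CPM in wild-type, 100.9, 103.9 and 105.4 CPM in knock-out and 92.9, 96.3 and 91.9 CPM in ΔTAD libraries. The wild-type libraries lay far under both other groups, which were close to each other but did not overlap. This gave a log2FC of 1.04 in knock-out (standard error 0.0376, edgeR adjusted p = 2.44e-17) and 0.9 in ΔTAD macrophages (standard error 0.0378, edgeR adjusted p = 3.87e-16). Eif2ak2 lies on chromosome 17, whose 746 tested genes had median log2FC of 0.48 in knock-out and of 0.50 in ΔTAD macrophages, and minus this median its values were 0.56 and 0.40. Knock-out lay above ΔTAD macrophages by 0.14 (edgeR adjusted p = 0.00184), which was not called without knock-out replicate 3 or without ΔTAD replicate 3 (0.12, edgeR adjusted p = 0.0177 and 0.0179). The part of the chromosome-wide shift in the result was not tested. Zbp1, which encodes a sensor of Z-form nucleic acid, did not pass the filter, with 4, 5 and 1 counts in wild-type, 14, 10 and 8 in knock-out and 5, 0 and 2 in ΔTAD libraries.

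The oligoadenylate synthetases make the messenger that activates RNase L, and 4 of the 5 genes of the family were higher in knock-out and 1 in ΔTAD macrophages, against 22.8% and 26.3% of all tested genes. Oas2 (ENSMUSG00000032690, chromosome 5, 120730333 to 120749853, minus strand) had 3.74, 3.36 and 2.48 CPM in wild-type, 10.7, 10.0 and 8.44 CPM in knock-out and 2.73, 2.3 and 2.67 CPM in ΔTAD libraries. The knock-out libraries lay far above the others, which overlapped. The log2FC was 1.59 in knock-out (standard error 0.142, edgeR adjusted p = 7.26e-10), −0.34 in ΔTAD macrophages (standard error 0.182, edgeR adjusted p = 0.114) and 1.93 between them (standard error 0.148, edgeR adjusted p = 1.78e-10). Oas3, the neighbour of Oas2 with the ISRE core shown above, had 11.97, 14.9 and 11.99 CPM in wild-type, 26.9, 23.1 and 24.3 CPM in knock-out and 14.2, 14.02 and 14.6 CPM in ΔTAD libraries. Again the knock-out libraries stood alone, 1.92-fold above wild-type libraries, and the direct difference from ΔTAD macrophages was 0.8 (standard error 0.0824, edgeR adjusted p = 3.42e-08).

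Oas1a was higher in both edited genotypes, with a log2FC of 0.73 in knock-out and of 0.62 in ΔTAD macrophages, and the direct difference of 0.11 was not called (edgeR adjusted p = 0.392). It has close paralogs, between which reads may have been split. The OAS-like genes went in opposite directions in knock-out macrophages. Oasl2 had 0.399, 0.752 and 0.727 CPM in wild-type, 1.53, 2.05 and 1.76 CPM in knock-out and 0.63, 0.72 and 0.571 CPM in ΔTAD libraries, with a log2FC of 1.52 in knock-out macrophages (standard error 0.287, edgeR adjusted p = 7.82e-05). The ΔTAD libraries fell within the wild-type range, and the direct difference from knock-out libraries was 1.46 (standard error 0.282, edgeR adjusted p = 0.000183). Oasl1, whose product is known to restrain the translation of Irf7, had 7.93, 6.89 and 6.78 CPM in wild-type, 6.01, 5.08 and 4.7 CPM in knock-out and 2.66, 3.65 and 3.76 CPM in ΔTAD libraries. Its 3 groups did not overlap, with wild-type libraries highest and ΔTAD libraries lowest. Expressed as log2FC, the change was −1.08 in ΔTAD (standard error 0.143, edgeR adjusted p = 5.21e-07) and −0.45 in knock-out macrophages (standard error 0.133, edgeR adjusted p = 0.00553), and the latter call was lost with DESeq2 and without knock-out replicate 2 or 3 or wild-type replicate 1 or 2 (edgeR adjusted p = 0.0107 to 0.0429). Knock-out lay above ΔTAD macrophages by 0.62 (edgeR adjusted p = 0.00174), which was not called without knock-out replicate 1 (0.51, edgeR adjusted p = 0.0185).

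Of the IFIT proteins, IFIT1 binds viral RNA that lacks the host's cap methylation. Ifit1, with 2 ISRE cores in its promoter, had 1.6, 1.56 and 1.7 CPM in wild-type, 3.8, 3.2 and 2.89 CPM in knock-out and 1.89, 0.912 and 1.14 CPM in ΔTAD libraries. The knock-out libraries were above all others, and the ΔTAD libraries spread over and under the wild-type values. Expressed as log2FC, the change was 1.03 in knock-out (standard error 0.214, edgeR adjusted p = 0.000232), −0.36 in ΔTAD macrophages (edgeR adjusted p = 0.233) and 1.39 between them (standard error 0.224, edgeR adjusted p = 2.15e-05). Ifit2 was higher in both genotypes, with a log2FC of 0.85 in knock-out and of 0.45 in ΔTAD macrophages, and the difference of 0.4 was called (edgeR adjusted p = 6.94e-05). Ifit3 had 0.58 to 1.33 CPM in knock-out and 0.449 to 0.606 CPM in wild-type libraries, which overlapped, and passed no test (log2FC 0.96, edgeR adjusted p = 0.0317).

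**Figure D5:**
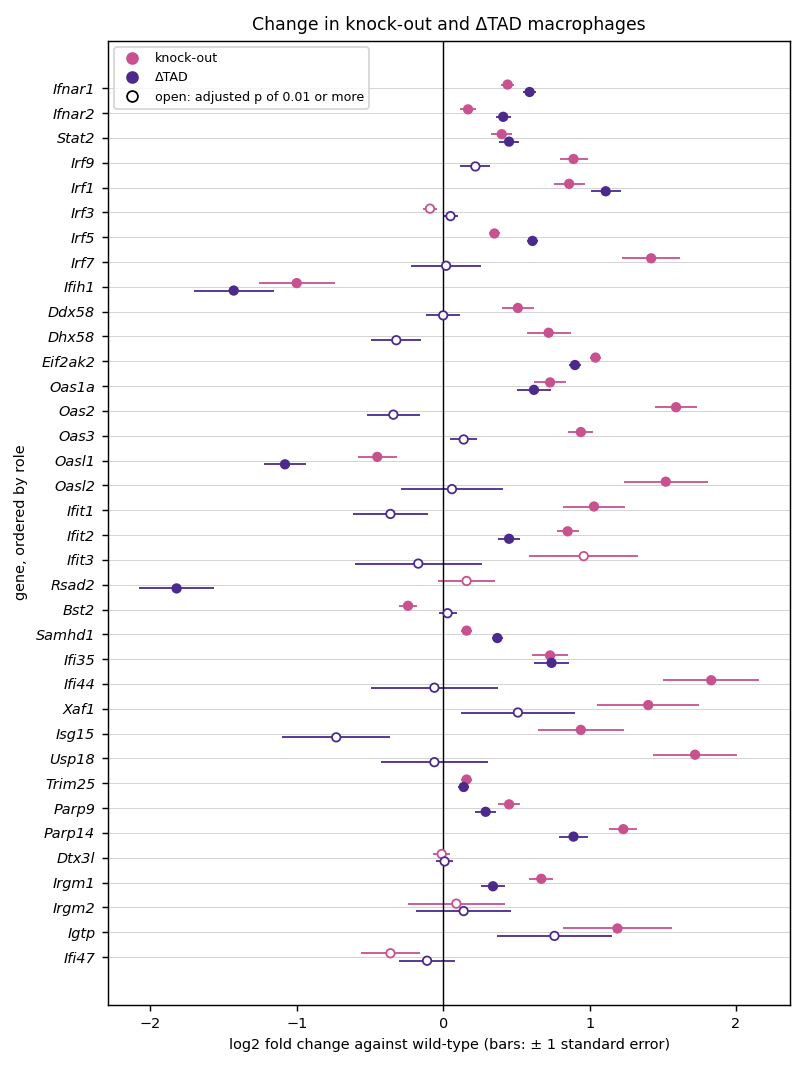
Log2 fold change (log2FC) against wild-type macrophages of the 36 tested genes for both edited genotypes, with bars of ± 1 standard error, ordered by role, and open points where the adjusted p-value was 0.01 or more. Knock-out points lie mostly right of 0, up to 1.83 for Ifi44, whereas ΔTAD points reach from −1.82 for Rsad2 to 1.11 for Irf1.

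Of the other antiviral effectors, Ifi44 and Xaf1 were higher in knock-out macrophages, and Rsad2, which encodes viperin, was lower in ΔTAD macrophages. Rsad2 (ENSMUSG00000020641, chromosome 12, 26442746 to 26456452, minus strand) had 2.64, 1.85 and 2.12 CPM in wild-type, 2.69, 2.54 and 2.21 CPM in knock-out and 0.56, 0.576 and 0.714 CPM in ΔTAD libraries. All ΔTAD libraries lay far under the others, and the knock-out and wild-type ranges overlapped. In log2FC this was −1.82 in ΔTAD (standard error 0.257, edgeR adjusted p = 1.33e-06), 0.16 in knock-out macrophages (standard error 0.196, edgeR adjusted p = 0.52) and 1.98 between knock-out and ΔTAD macrophages (standard error 0.252, edgeR adjusted p = 9.33e-07). The 541 tested genes of chromosome 12 had median log2FC of −0.52 in knock-out and of −0.54 in ΔTAD macrophages. Minus this median the values of Rsad2 were 0.68 in knock-out macrophages, −1.28 in ΔTAD macrophages, and 1.99 between knock-out and ΔTAD macrophages minus the median of that comparison. The part of the chromosome in these values was not tested.

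Ifi44, an antiviral protein of the cytoplasm, had 0.349, 0.289 and 0.666 CPM in wild-type, 1.48, 1.33 and 1.81 CPM in knock-out and 0.56, 0.336 and 0.381 CPM in ΔTAD libraries. The knock-out libraries stood alone above the rest. Ifi44 passed the filter only through them, with 28, 22 and 32 counts against 5 to 11 in the other libraries. Of the 36 genes it had the highest log2FC in knock-out macrophages, 1.83 (standard error 0.329, edgeR adjusted p = 4.15e-05), and the direct difference from ΔTAD macrophages was 1.89 (standard error 0.329, edgeR adjusted p = 5.6e-05). Xaf1, an interferon-inducible partner of an apoptosis inhibitor, had 0.299, 0.579 and 0.484 CPM in wild-type, 1.21, 1.33 and 1.02 CPM in knock-out and 0.49, 0.48 and 0.904 CPM in ΔTAD libraries. Xaf1 also passed the filter only through the knock-out libraries, with 23, 22 and 18 counts against 6 to 19 in the others. Its log2FC of 1.4 in knock-out macrophages was called (edgeR adjusted p = 0.00142), though not without wild-type replicate 1 (1.15, edgeR adjusted p = 0.0156), and the direct difference from ΔTAD macrophages, 0.88, was not called (edgeR adjusted p = 0.0269).

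Bst2, which carries the ISRE core shown above, was lower in knock-out macrophages, with 21.4, 21.6 and 20.8 CPM against 25.7, 25.2 and 24.5 CPM in wild-type and 26.2, 26.3 and 24.7 CPM in ΔTAD libraries. The knock-out libraries lay under all others, by a log2FC of −0.24 against wild-type (edgeR adjusted p = 0.00208) and −0.27 against ΔTAD macrophages (edgeR adjusted p = 0.00104). Without wild-type replicate 1 the first of these was not called (−0.22, edgeR adjusted p = 0.0145). Samhd1, which depletes the nucleotides that viral polymerases need, and Ifi35 were higher in both genotypes. The log2FC of Samhd1 were 0.16 in knock-out macrophages and 0.37 in ΔTAD macrophages, and those of Ifi35 were 0.73 and 0.74. Samhd1 was not called in knock-out macrophages without wild-type replicate 3 (0.11, edgeR adjusted p = 0.0104) or with library size alone (0.14, edgeR adjusted p = 0.0435). Isg20, Mx1 and Mx2 did not pass the filter, with at most 10, 4 and 11 counts in any library.

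Of the genes for ISG15 and the enzymes of ubiquitin and ADP-ribose transfer, 5 of 6 were higher in knock-out and 3 of 6 in ΔTAD macrophages, against 22.8% and 26.3% of all tested genes. Usp18, the protease that removes ISG15 and dampens signalling at the receptor, had 0.698, 0.81 and 0.363 CPM in wild-type, 1.63, 2.11 and 2.55 CPM in knock-out and 0.63, 0.624 and 0.571 CPM in ΔTAD libraries. Each knock-out library lay above all others, and the ΔTAD libraries fell within the wild-type range. The fitted log2FC was 1.72 in knock-out (standard error 0.288, edgeR adjusted p = 1.68e-05), −0.06 in ΔTAD macrophages (edgeR adjusted p = 0.905) and 1.78 between them (standard error 0.288, edgeR adjusted p = 2.35e-05). Isg15, the ubiquitin-like modifier itself, had 0.698, 0.752 and 0.787 CPM in wild-type, 1.63, 1.21 and 1.42 CPM in knock-out and 0.28, 0.336 and 0.666 CPM in ΔTAD libraries. Its 3 groups did not overlap, with the knock-out libraries highest and the ΔTAD libraries lowest. The direct difference between knock-out and ΔTAD macrophages was 1.67 (standard error 0.323, edgeR adjusted p = 0.000184), while against wild-type macrophages the log2FC was 0.94 in knock-out (edgeR adjusted p = 0.00887) and −0.73 in ΔTAD macrophages (edgeR adjusted p = 0.0911). The call in knock-out macrophages was lost in 8 of 15 other fits, among them those without any 1 wild-type library, knock-out replicate 1 or 3 or ΔTAD replicate 2 (edgeR adjusted p = 0.0111 to 0.0484).

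Parp14, an ADP-ribosyltransferase that is induced by interferon, had 6.68, 8.04 and 8.84 CPM in wild-type, 19.2, 18.7 and 17.0 CPM in knock-out and 14.8, 13.9 and 14.7 CPM in ΔTAD libraries. The groups did not overlap, with knock-out libraries highest. On the log2 scale the change was 1.23 in knock-out (standard error 0.0945, edgeR adjusted p = 4.65e-11) and 0.89 in ΔTAD macrophages (standard error 0.0978, edgeR adjusted p = 2.58e-08), and the difference of 0.34 was called (edgeR adjusted p = 0.00172), though not without knock-out replicate 1 or without ΔTAD replicate 2 (0.31, edgeR adjusted p = 0.0135 in both). Of the neighbouring pair Parp9 and Dtx3l, whose products act as a complex, Parp9 was higher in knock-out by a log2FC of 0.45 and in ΔTAD macrophages by 0.29, while Dtx3l had −0.01 and 0.01 and passed no test. The ΔTAD call of Parp9 was lost without ΔTAD replicate 1 (0.23, edgeR adjusted p = 0.0109) and without wild-type replicate 3 (0.23, edgeR adjusted p = 0.0164). Their exons share 458 bases on opposite strands, so that the reads of this stretch cannot be told apart if strand was not used. Trim25, the most abundant gene per length, was higher by 0.16 in knock-out and 0.14 in ΔTAD macrophages on the log2 scale, the latter not called without ΔTAD replicate 2 (0.12, edgeR adjusted p = 0.0128). With library size alone neither was called (0.14 in knock-out, edgeR adjusted p = 0.066, and 0.05 in ΔTAD macrophages, edgeR adjusted p = 0.546).

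The interferon-inducible GTPases act on the membranes of vacuoles that hold pathogens, and 4 of the 7 genes could be tested. Irgm1 was higher in both genotypes, with a log2FC of 0.67 in knock-out and of 0.34 in ΔTAD macrophages and a called difference of 0.33 (edgeR adjusted p = 0.0014). The ΔTAD call was lost without wild-type replicate 1 (0.29, edgeR adjusted p = 0.0109), and the difference was not called without knock-out replicate 1 (0.24, edgeR adjusted p = 0.0212) or ΔTAD replicate 3 (0.29, edgeR adjusted p = 0.0104). Igtp had 0.598, 0.231 and 0.363 CPM in wild-type, 1.05, 1.03 and 0.737 CPM in knock-out and 0.56, 0.864 and 0.619 CPM in ΔTAD libraries. Its log2FC in knock-out macrophages, 1.19, was called (standard error 0.372, edgeR adjusted p = 0.00868) but lost in 8 of 15 other fits, among them those without knock-out replicate 1 or 2, ΔTAD replicate 2 or 3 or wild-type replicate 2 or 3 (edgeR adjusted p = 0.0101 to 0.0546). Its exons share 162 bases with Irgm2 on the same strand. Irgm2 and Ifi47 passed no test, with a log2FC of 0.09 and −0.36 in knock-out and 0.14 and −0.11 in ΔTAD macrophages. Gbp2, Gbp3 and Gbp7 did not pass the filter, with at most 7, 11 and 9 counts in any library.

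Genes that work around this response were described from fixed lists of the pathway. Of 14 tested genes of JAK-STAT signalling, 6 (42.9%) were higher and 1 (7.14%) lower in knock-out macrophages, against 22.8% and 22.4% of all tested genes. In ΔTAD macrophages 8 (57.1%) were higher and 1 (7.14%) lower, against 26.3% and 23.4%. The gene lower in both was Socs3, an inhibitor of cytokine receptors, with 27.8, 24.1 and 27.1 CPM in wild-type, 9.12, 10.6 and 9.8 CPM in knock-out and 8.81, 8.26 and 9.42 CPM in ΔTAD libraries. In log2FC this was −1.43 in knock-out (edgeR adjusted p = 2.28e-13) and −1.58 in ΔTAD macrophages (edgeR adjusted p = 3.29e-14). The receptor genes Il10rb and Ifngr1 were higher, with a log2FC of 0.83 and 0.62 in knock-out and 1.16 and 0.82 in ΔTAD macrophages.

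Of 19 tested genes for the sensing of pathogens and the induction of interferon, 8 (42.1%) were higher and 4 (21.1%) lower in knock-out macrophages, against 22.8% and 22.4% of all tested genes. In ΔTAD macrophages 12 (63.2%) were higher and 4 (21.1%) lower, against 26.3% and 23.4%, and the lower shares were near those of all genes in both. Tlr3, the endosomal receptor for double-stranded RNA, had 2.29, 2.49 and 2.72 CPM in wild-type, 4.85, 4.95 and 4.14 CPM in knock-out and 10.5, 8.98 and 9.95 CPM in ΔTAD libraries. The groups did not overlap, with ΔTAD libraries highest, and the direct difference between knock-out and ΔTAD macrophages was −1.07 (standard error 0.117, edgeR adjusted p = 8.6e-08). Tlr9 had a log2FC of 0.74 and 0.75, Ticam1 of 0.99 and 0.93 and Ticam2 of 0.59 and 0.89, in knock-out and ΔTAD macrophages in this order. Ticam1 lies on chromosome 17, with the chromosome-wide shift given above. Of the 6 other tested IRF and IRF-binding genes, Irf2bp2 was higher in both genotypes (log2FC 0.75 and 1.13), Irf8 was slightly higher in both (0.21 and 0.18), and Irf4, a factor of alternative macrophage activation, was lower in ΔTAD macrophages (−1.17, edgeR adjusted p = 6.36e-07) and not called in knock-out macrophages (−0.22, edgeR adjusted p = 0.185). Irf2bpl, on chromosome 12, had a log2FC of −0.45 in knock-out and of −0.57 in ΔTAD macrophages, close to the medians of that chromosome given above, and minus the median it was 0.07 in knock-out macrophages.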

How the data were processed

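Single reads of rRNA-depleted RNA (KAPA RNA HyperPrep with RiboErase) were trimmed by the authors with Trimmomatic, aligned to GRCm38 with HISAT2 and counted on Ensembl genes with HTSeq. Trimmomatic 0.36 and HISAT2 2.3.4.3 are the versions of the submitters' processing notes, while the paper's methods name other versions of both. The mode and strand setting of the counting are not given in the sources used here. The deposited values are raw counts per gene, 1 list per library with 55487 genes and 5 tally lines, which were left out. Genotypes and replicate numbers were taken from the labels.

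Genes were filtered with filterByExpr (minimum count 10, minimum total 15), scaled by TMM and tested with edgeR 4.0.16 in R 4.3.3, in 1 quasi-likelihood model over all 9 libraries, and p-values were adjusted by Benjamini-Hochberg over 14312 genes. The threshold was an adjusted p-value under 0.01, that of the study, which does not name its test. At this threshold more genes were called here, in both directions and both comparisons with wild-type, than the study reports. The standard error of a log2 fold change was taken as its size over the root of F. CPM values use TMM-scaled library sizes. Exon lengths and shared exon bases come from GENCODE M21 (GRCm38), promoter windows from RefSeq (GRCm38.p6). The model was also run on simulated counts. Far fewer genes were changed there than were called here, and only in knock-out libraries, so that this run does not check the calls.

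All 43 genes are reported. Values in every library are given for genes called with a log2 fold change of at least 1 in size and at least 1 CPM on average in the higher genotype, and for Ifnar1, Ifnar2, Stat2, Irf9, Irf3 and Irf7. Oas3, Ddx58, Bst2, Igtp and the counts of Zbp1 were added after their values were seen. From each other list, up to 3 called genes per comparison with wild-type with the largest change are named. One further gene of the rule is not reported here. The genes and lists were chosen with earlier results of these data known. Alternatives were DESeq2 1.42.0, other scaling, filters, samples, threshold, the replicate number as a block, the removal of each library and of the chromosome's median.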

Additional observations from a re-analysis of the deposited data

How the results depend on the processing

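Of 69 called values of the 36 tested genes, 49 were called in all 15 other fits and 20 were not called in at least 1. Scaling by library size alone lost 10 of the 69 calls and left 1 in place of 5 genes lower in knock-out than in ΔTAD macrophages. DESeq2 lost 5. Leaving out each library in turn gave 23 to 28 genes higher and 1 to 3 lower in knock-out, 13 to 14 higher and 3 lower in ΔTAD than in wild-type macrophages, and 15 to 19 higher and 4 to 5 lower in knock-out than in ΔTAD macrophages.

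The labels do not say whether the replicate numbers pair the libraries. Libraries with the same number correlated in their deviations by −0.0717 to 0.02, and those with different numbers by −0.0547 to 0.081. This does not settle whether they were prepared in pairs. With the replicate number as a block 24 genes were higher and 3 lower in knock-out, 14 higher and 3 lower in ΔTAD than in wild-type macrophages, and 17 higher and 5 lower in knock-out than in ΔTAD macrophages, and the calls of Ifnar2, Isg15 and Igtp in knock-out macrophages were lost (edgeR adjusted p = 0.013, 0.013 and 0.0114).

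Values that turned their sign were log2 fold changes near 0 that had not been called, apart from Irf2bpl, which was 0.07 in knock-out macrophages minus the median of chromosome 12. With library size alone they were, in ΔTAD macrophages, −0.04 for Irf3, −0.06 for Irf7, −0.02 for Oasl2, −0.06 for Bst2 and −0.08 for Dtx3l, and between knock-out and ΔTAD macrophages 0.02 for Stat2, 0.06 for Ifi35, 0.05 for Dtx3l and 0.01 for Irgm2. Ddx58 in ΔTAD macrophages turned to 0.02 with every gene that had 1 count and to 0.01 with the block. Dtx3l in ΔTAD macrophages turned to −0.01 with DESeq2's size factors and with DESeq2, and to 0.01 between knock-out and ΔTAD macrophages in a model of those genotypes. Ifi35 between them turned to 0.00 with DESeq2's size factors and with the block, to 0.02 in that model and to 0.01 with DESeq2. Leaving out each library gave, in ΔTAD macrophages, −0.01 to 0.06 for Bst2, −0.08 to 0.14 for Ddx58, −0.01 to 0.02 for Dtx3l, −0.28 to 0.35 for Ifi44, −0.31 to 0.01 for Ifi47, −0.15 to 0.19 for Irf7, −0.08 to 0.36 for Irgm2, −0.2 to 0.23 for Oasl2, −0.56 to 0.14 for Rtp4 and −0.3 to 0.16 for Usp18. Between knock-out and ΔTAD macrophages it gave −0.06 to 0.03 for Dtx3l, −0.07 to 0.09 for Ifi35, −0.28 to 0.16 for Irgm2, −0.01 to 0.2 for Oas1a and −0.1 to 0.0 for Stat2, and in knock-out macrophages −0.05 to 0.04 for Dtx3l and −0.05 to 0.26 for Irgm2. The cause of these turns was not tested.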

Other observations

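A further list of 82 interferon-stimulated genes outside the 43 gave 58 tested genes. In knock-out macrophages 36 of them (62.1%) were higher and 4 (6.9%) lower than in wild-type macrophages, against 22.8% and 22.4% of all tested genes. In ΔTAD macrophages 31 (53.4%) were higher and 7 (12.1%) lower, against 26.3% and 23.4%, with a median log2FC of 0.46 in knock-out and of 0.42 in ΔTAD cells. Tested directly, 13 (22.4%) were higher and 9 (15.5%) lower in knock-out than in ΔTAD macrophages, against 13.9% and 19.1% of all tested genes, with a median log2 fold change of 0.01. Rtp4, a chaperone of receptors, had 0.249, 0.231 and 0.424 CPM in wild-type, 1.58, 1.03 and 1.76 CPM in knock-out and 0.21, 0.192 and 0.381 CPM in ΔTAD libraries. Rtp4 passed the filter only through the knock-out libraries, with 30, 17 and 31 counts against 3 to 8 in the others. Its log2 fold change was 2.27 in knock-out (standard error 0.366, edgeR adjusted p = 9.99e-06) and −0.15 in ΔTAD macrophages (edgeR adjusted p = 0.82). Ifi27l2a and Slfn2 were higher in both, with log2 fold changes of 2.25 for Ifi27l2a and 1.32 for Slfn2 in knock-out and of 1.75 and 1.6 in ΔTAD macrophages.

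Genes of the Ifi200 family, DNA sensors and regulators that lie close together on chromosome 1, went separate ways. Mndal had 4.44, 4.8 and 4.36 CPM in wild-type, 0.896, 0.786 and 0.623 CPM in knock-out and 8.11, 6.77 and 8.9 CPM in ΔTAD libraries. The 3 groups did not overlap, and the direct difference between knock-out and ΔTAD macrophages was −3.35 on the log2 scale (standard error 0.189, edgeR adjusted p = 5.89e-13). Ifi213 was lower in both genotypes, with log2 values of −2.26 in knock-out and of −1.95 in ΔTAD macrophages. The following genes were chosen after their values were seen. Ifi203 and Ifi204 were higher in ΔTAD macrophages (log2 fold changes 1.54 and 1.17), whereas in knock-out macrophages they had 0.64 and −0.38 without passing the test (edgeR adjusted p = 0.0305 and 0.471). These paralogs are similar in sequence, and reads may have been split between them. Cgas, the cytosolic DNA sensor, was higher in knock-out (log2 fold change 0.71, edgeR adjusted p = 8.07e-15) and lower in ΔTAD macrophages (−0.25, edgeR adjusted p = 2.62e-06). Cmpk2, the gene next to Rsad2 on chromosome 12 and read from the opposite strand, showed −1.11 in ΔTAD macrophages (edgeR adjusted p = 0.00584), 0.74 in knock-out macrophages without passing the test (edgeR adjusted p = 0.0166) and 1.85 between knock-out and ΔTAD macrophages (edgeR adjusted p = 2.23e-05). The tested genes of chromosome 12 had a median log2FC of −0.52 in knock-out and of −0.54 in ΔTAD cells, which is not taken off these values of Cmpk2.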
